A study of Mus musculus with 78 samples.

Results

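The genes described here encode 5 J-domain proteins (Dnaja1, Dnajb1, Dnajb2, Dnajb4 and Dnajb5), the co-chaperone Bag3 and the small heat shock proteins Hspb1 and Hspb8, 8 genes of the 18820 that the array annotation names by a single symbol. They were followed in mouse lung through sleep and sleep deprivation. Each gene was represented by its brightest probe set (by mean over the 78 arrays) among those annotated to that gene alone. The mice were young adult C57BL/6J males, fed only during the dark phase before the experiment, and each contributed lung RNA to 1 Affymetrix Mouse Gene 1.0 ST array. A baseline group of 9 mice was killed at lights on, 0 h. Sleep-deprived mice were kept awake from lights on by gentle handling for 3 h (9 mice), 6 h (9 mice), 9 h (9 mice) or 12 h (8 mice). Sleeping mice were left undisturbed for 3 h (9 mice), 6 h (7 mice), 9 h (9 mice) or 12 h (9 mice). The comparison at each hour asks what differs between the states at the same time of day, although handling and loss of sleep cannot be told apart in this design.

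J-domain proteins, also called DnaJ or Hsp40 proteins, bind unfolded client proteins and trigger the ATPase of Hsp70, which then grips the client. Bag3 is a nucleotide exchange factor that opens Hsp70 again and, together with the small heat shock protein Hspb8, passes damaged proteins to selective autophagy. Small heat shock proteins hold unfolded proteins in solution without using ATP. Several of these genes are known targets of heat shock factor 1, which binds repeats of the letters GAA and TTC known as heat shock elements.

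RefSeq promoter windows in the build GRCm38.p6, 250 bases before to 50 bases after a start site, were read for all 8 genes (15 windows, since a gene can have several start sites). They were searched on both strands for GAANNTTC and TTCNNGAA, which are each their own reverse complement and can overlap one another. At least 1 window of 5 of the 8 genes (Dnaja1, Dnajb4, Bag3, Hspb1 and Hspb8) held 1 of these motifs, against 17% of 27025 genes with a window. Counted by window, 5 of the 15 held one, against 15.1% of the 32851 windows counted. Windows of 1 chromosome, which holds none of the 8 genes, were not analysed here and are in neither total. The count by gene depends on how many windows a gene has. The matches of Bag3 and Hspb8 lay after the start site. The longer GAANNTTCNNGAA, with its reverse complement TTCNNGAANNTTC, was in 0 of the 15 windows and in 0.603% of the windows counted. A match describes letters in a window and is not a binding site. Dnaja1, Hspb1 and Dnajb4 had a match and differed between the states at 3 h. Dnajb1 and Dnajb2 differed at 3 h without a match, Bag3 and Hspb8 had a match but did not pass, and Dnajb5 had neither. The 3 stretches below, each upstream of a start site, hold the matches of Dnaja1, Hspb1 and Dnajb4, with the fixed letters of the motif in capitals. They lie at chr4:40722304-40722391 on the plus strand, chr5:135887762-135887869 on the plus strand and chr3:152193846-152193899 on the minus strand.
Dnaja1: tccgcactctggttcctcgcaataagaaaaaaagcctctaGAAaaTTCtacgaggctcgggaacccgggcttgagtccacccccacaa
Hspb1: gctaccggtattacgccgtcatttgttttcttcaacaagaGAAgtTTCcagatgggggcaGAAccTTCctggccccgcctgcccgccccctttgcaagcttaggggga
Dnajb4: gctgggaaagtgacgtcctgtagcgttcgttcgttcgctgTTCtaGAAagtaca

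The deposited values are log2 intensities on which array medians ran from 6.45 to 6.78, and the number of mice limits the precision, since arrays have no read depth. Surfactant and other lung markers were at high levels (Sftpc, surfactant protein C, had a mean log2 intensity of 13.25), as the tissue label says. The array numbers in the labels form 4 runs in which the order of conditions repeats. All 9 baseline mice and the 3 h and 6 h groups lie in runs other than those of the 9 h and 12 h groups, so baseline and the later hours cannot be told apart from a change of run. When the order of conditions is laid along the array numbers, 15 arrays fall on a neighbouring condition, and array 81 is also out of sequence. Conditions were used as labelled, and results are given with and without these 16 arrays where a call differs. For some comparisons with baseline, the results without them are given as counts in the closing section. Lung tissue was not divided by cell type, so fewer cells of a type and less RNA per cell cannot be told apart.

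At 3 h, 5 of the 8 genes were higher after sleep deprivation than after sleep (Dnaja1, Dnajb1, Dnajb2, Dnajb4 and Hspb1), and none was lower, with an adjusted p under 0.01 from limma. Over all genes, 3.62% were higher and 3.74% lower by the same rule (7.36% in either direction). The median difference of the 8 genes was 0.31 on the log2 scale, beside 0.0069 over all genes. The 8 genes were chosen with earlier results of these data known, so these values describe them and do not test an excess. The 5 differences ran from 1.23-fold for Dnajb4 to 1.89-fold for Hspb1.

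Dnaja1 encodes a class A J-domain partner of cytosolic Hsp70. In the 9 mice sleep-deprived for 3 h its log2 intensity had a lowest value of 9.20, a median of 10.32 and a highest value of 10.73. In the 9 mice that had slept for 3 h the lowest value was 8.98, the median 9.33 and the highest 9.77. Of the sleep-deprived mice, 8 lay above every sleeping mouse, and array 46, 1 of the 16 arrays, lay above the lowest of them alone. The difference of 0.87 (SE 0.12, adjusted p = 1.6e-07 from limma) is 1.83-fold (95% interval 1.56 to 2.15). Within the runs that hold the 3 h groups it was 0.71 (5 against 5 mice) and 1.07 (4 against 4 mice).

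Dnajb1, the class B J-domain protein that is the best known heat-inducible partner of Hsp70, had a lowest value of 8.48, a median of 8.94 and a highest value of 9.47 after 3 h of sleep deprivation. After 3 h of sleep its lowest value was 7.92, its median 8.27 and its highest 8.64. As for Dnaja1, 8 of the 9 sleep-deprived mice lay above all 9 sleeping mice and array 46 was the lowest of its group. The difference was 0.72 (SE 0.12, adjusted p = 1.97e-05 from limma), or 1.65-fold, and it was 0.72 and 0.73 within the 2 runs.

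Dnajb2, a class B protein of neurons and muscle that delivers clients to the proteasome, had a smaller difference with little scatter. Its values were 8.00 at the lowest, 8.27 at the median and 8.39 at the highest in sleep-deprived mice, and 7.72, 7.93 and 8.05 in sleeping mice. Again 8 of 9 sleep-deprived mice lay above all sleeping mice, and array 46 was the lowest. The difference of 0.32 (SE 0.06, adjusted p = 0.000103 from limma) is 1.25-fold.

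Dnajb4, a class B protein close in sequence to Dnajb1, was higher in sleep-deprived mice by 0.30 (SE 0.08, limma adjusted p = 0.00689). Its values were 10.02, 10.61 and 10.82 (lowest, median and highest) in sleep-deprived and 9.62, 10.29 and 10.61 in sleeping mice, and 4 of 9 sleep-deprived mice lay above all sleeping mice. The lowest value in each group stood apart, array 46 at 10.02 in sleep-deprived and array 76 at 9.62 in sleeping mice. The difference was 0.13 (5 against 5 mice) and 0.51 (4 against 4 mice) within the 2 runs. This call was lost when any of 8 mice was left out (without array 76 the difference was 0.22, adjusted p = 0.0403) and when the spread was taken from the 3 h groups alone (adjusted p = 0.121).

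Hspb1, the small heat shock protein also named Hsp25, was the 1 gene outside the J-domain family that passed. After 3 h of sleep deprivation its values were 11.70, 12.30 and 12.69 (lowest, median and highest), and after 3 h of sleep they were 10.83, 11.35 and 11.97. Of the sleep-deprived mice, 7 of 9 lay above all sleeping mice. Array 46, the lowest of its group for the J-domain genes, was among the highest here at 12.54. The difference was 0.92 (SE 0.19, adjusted p = 0.000574 from limma), or 1.89-fold with a 95% interval of 1.45 to 2.46, and it was 1.05 and 0.76 within the 2 runs.

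The other 3 genes did not pass at 3 h. Bag3 differed by 0.22 (SE 0.07, limma adjusted p = 0.027) and Hspb8 by 0.22 (SE 0.09, adjusted p = 0.105), with intervals of 1.06 to 1.28 and of 1.03 to 1.33 in fold. Bag3 passed when array 76 was left out (0.26, adjusted p = 0.00931), and both genes passed with array weights. Dnajb5, a class B protein known from muscle and brain, differed by 0.07 (SE 0.05, adjusted p = 0.365), with an interval from 0.98-fold to 1.13-fold. Without the 16 arrays the same 5 genes passed, where 4.76% of all genes were called higher. The sleep-deprived and sleeping mice then did not overlap for Dnaja1, Dnajb1, Dnajb2 and Dnajb4 (7 against 7 mice). The share of all genes without such overlap is not given, and 4.76% is not that share. The differences without these arrays were 1.06 for Dnaja1 (adjusted p = 1.11e-11 from limma), 0.83 for Dnajb1, 0.37 for Dnajb2 and 0.44 for Dnajb4. Hspb1 differed by 0.74 without these arrays (limma adjusted p = 0.00515), and its groups still overlapped, with 5 of 7 sleep-deprived mice above all sleeping mice.

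**Figure D1:**
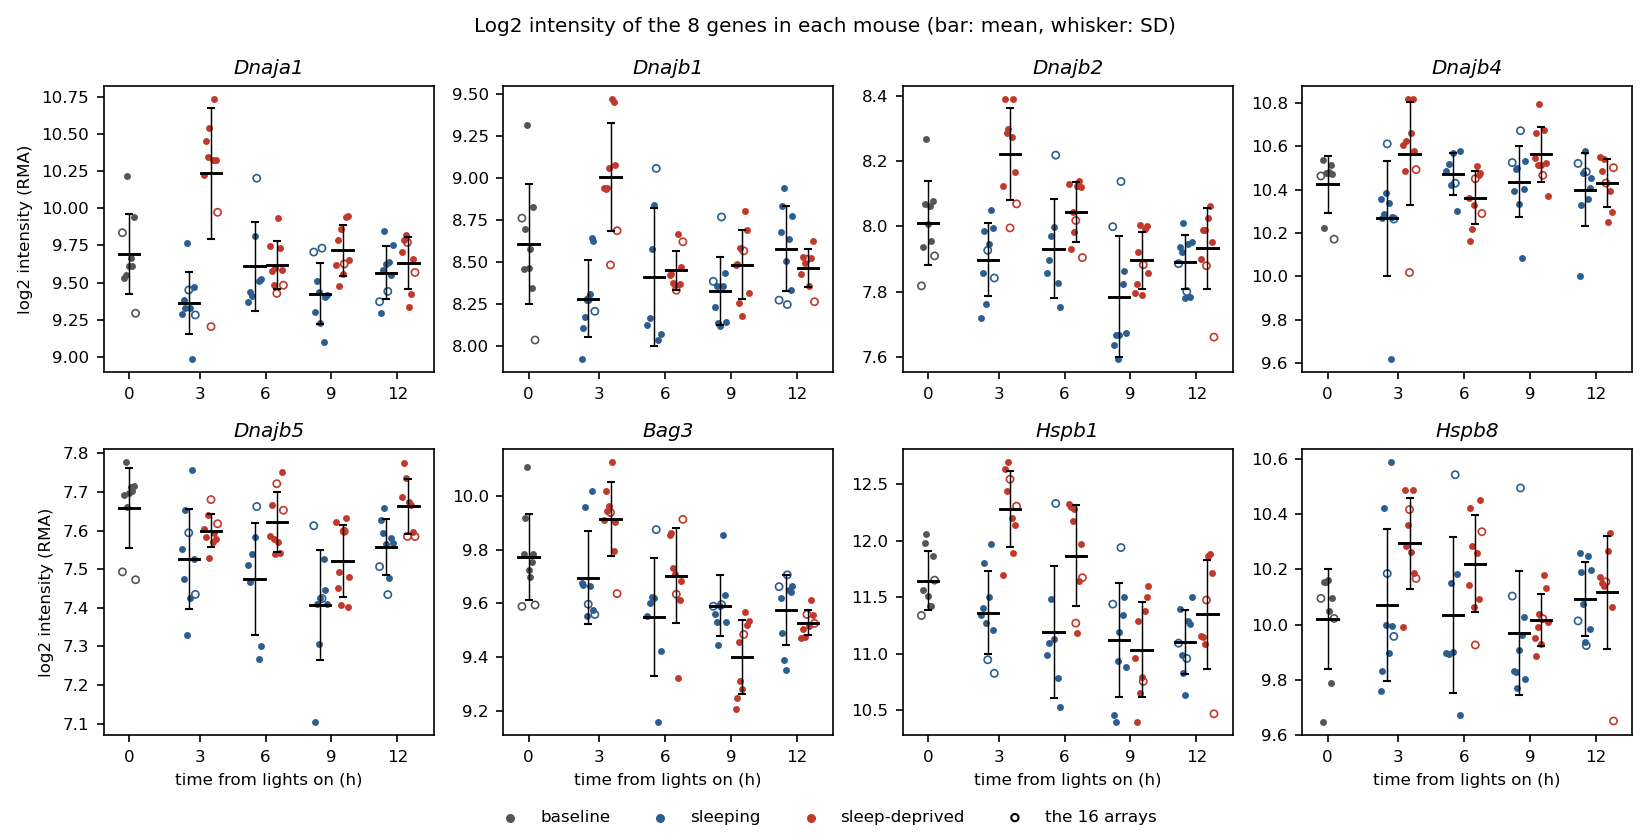
Log2 intensity (vertical axes) of each gene in every mouse at 0, 3, 6, 9 and 12 h from lights on, with baseline mice in grey, sleeping mice in blue and sleep-deprived mice in red. Bars are group means, whiskers 1 SD, and open points the 16 arrays. For Dnaja1, Dnajb1 and Dnajb2, 8 of the 9 mice sleep-deprived for 3 h lie above all mice that slept for 3 h.

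Markers of some cell types also differed at 3 h, and their part in these results was not tested. Markers of B cells were lower in sleep-deprived mice for 3 of 3 genes measured (levels from -1.14 to -0.08 in sleep-deprived and from 0.32 to 1.03 in sleeping mice, each the mean log2 difference of a list from its mean over all arrays), and those of neutrophils for 3 of 4 (from -0.88 to 0.50 and from 0.06 to 1.07). Of 5 liver markers 0 passed by limma, but their median difference was -2.06, and their level ran from -1.60 to 0.24 in sleep-deprived and from -0.77 to 4.41 in sleeping mice. Of 6 skeletal muscle markers 0 passed as well, with a median difference of -1.14 and levels from -1.29 to 2.38 and from -1.29 to 2.38. Of 4 brown fat markers 0 passed, with a median difference of -1.44 and levels from -2.09 to 2.53 and from -1.64 to 3.88. Of 4 natural killer cell markers 1 was lower, Klrb1c with -0.57 (limma adjusted p = 0.00119), with a list median of -0.52 and levels from -0.51 to 0.88 and from 0.02 to 0.99. T cell markers, with 0 of 4 passing, had a median of -0.53 and levels from -0.75 to 0.05 and from -0.14 to 0.53. Of 4 lung endothelium markers 1 was higher, Pecam1 by 0.11 (limma adjusted p = 0.00773), with a list median of 0.03. Smooth muscle markers, of which 0 of 7 passed, ran from -0.31 to 0.12 and from -0.36 to 0.25. Markers of alveolar type 2, alveolar type 1 and airway cells had 0 calls, with median differences of 0.02, -0.0086 and 0.01.

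At 6 h the differences of Dnaja1, Dnajb1, Dnajb2 and Dnajb4 ran from -0.11 to 0.11. None of the 8 genes passed at 6 h by limma, where 0.085% of all genes did, and 3 had an unadjusted p under 0.05 (Dnajb5, Bag3 and Hspb1). No share of all genes at an unadjusted p under 0.05 is given. Counts of this kind, here and below, therefore have no background, and shares at an adjusted p under 0.01 are not one. Dnaja1 was at 9.43, 9.58 and 9.93 (lowest, median and highest) in sleep-deprived mice and at 9.37, 9.51 and 10.20 in sleeping mice, which differ by 0.0085 (SE 0.12). Hspb1 differed by 0.68 (SE 0.21, limma adjusted p = 0.109). Its values were 11.19, 11.96 and 12.32 in sleep-deprived mice and 10.53, 11.09 and 12.33 in sleeping mice, where array 66, among the 16, was the highest. Without the 16 arrays, 6 of 7 sleep-deprived mice lay above all 6 sleeping mice and Hspb1 was the 1 gene of the 8 that passed (0.98, adjusted p = 0.000798 from limma, where 3.92% of all genes passed).

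The step from 3 h to 6 h within each state, a comparison chosen after the values had been seen, was taken over groups that lie in the same runs. In sleep-deprived mice 2 of the 8 genes fell (0.191% of all genes fell and 0.276% changed by the same rule), Dnaja1 by 0.62 (SE 0.12, adjusted p = 0.00172) and Dnajb1 by 0.56 (SE 0.12, adjusted p = 0.00817). Of the others, Hspb1 changed by -0.41 (adjusted p = 0.307), Bag3 by -0.21 (adjusted p = 0.0991), Dnajb4 by -0.20 and Dnajb2 by -0.18. In sleeping mice 0 of the 8 passed by limma, as did 0% of all genes, and 1 had an unadjusted p under 0.05, Dnajb4 with 0.21. Dnaja1 and Dnajb1 changed there by 0.25 and 0.13.

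At 9 h none of the 8 genes passed by limma, beside 2.88% of all genes, and 3 had an unadjusted p under 0.05. Dnaja1 was at 9.48, 9.65 and 9.95 (lowest, median and highest) in sleep-deprived and at 9.10, 9.41 and 9.73 in sleeping mice, which differ by 0.29 (SE 0.12, adjusted p = 0.0947). Bag3 pointed the other way, at 9.21, 9.46 and 9.57 against 9.45, 9.59 and 9.85, a difference of -0.19 (SE 0.07, adjusted p = 0.072). Dnajb5 differed by 0.11 (adjusted p = 0.132). Without the 16 arrays Dnaja1 (0.39, adjusted p = 0.00393) and Dnajb2 (0.19, adjusted p = 0.00687) passed, where 7.13% of all genes did. At 12 h again 0 of the 8 passed by limma, beside 0.133% of all genes, and 1, Dnajb5 with 0.11, had an unadjusted p under 0.05. The differences at 12 h ran from -0.11 for Dnajb1 to 0.24 for Hspb1.

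**Figure D2:**
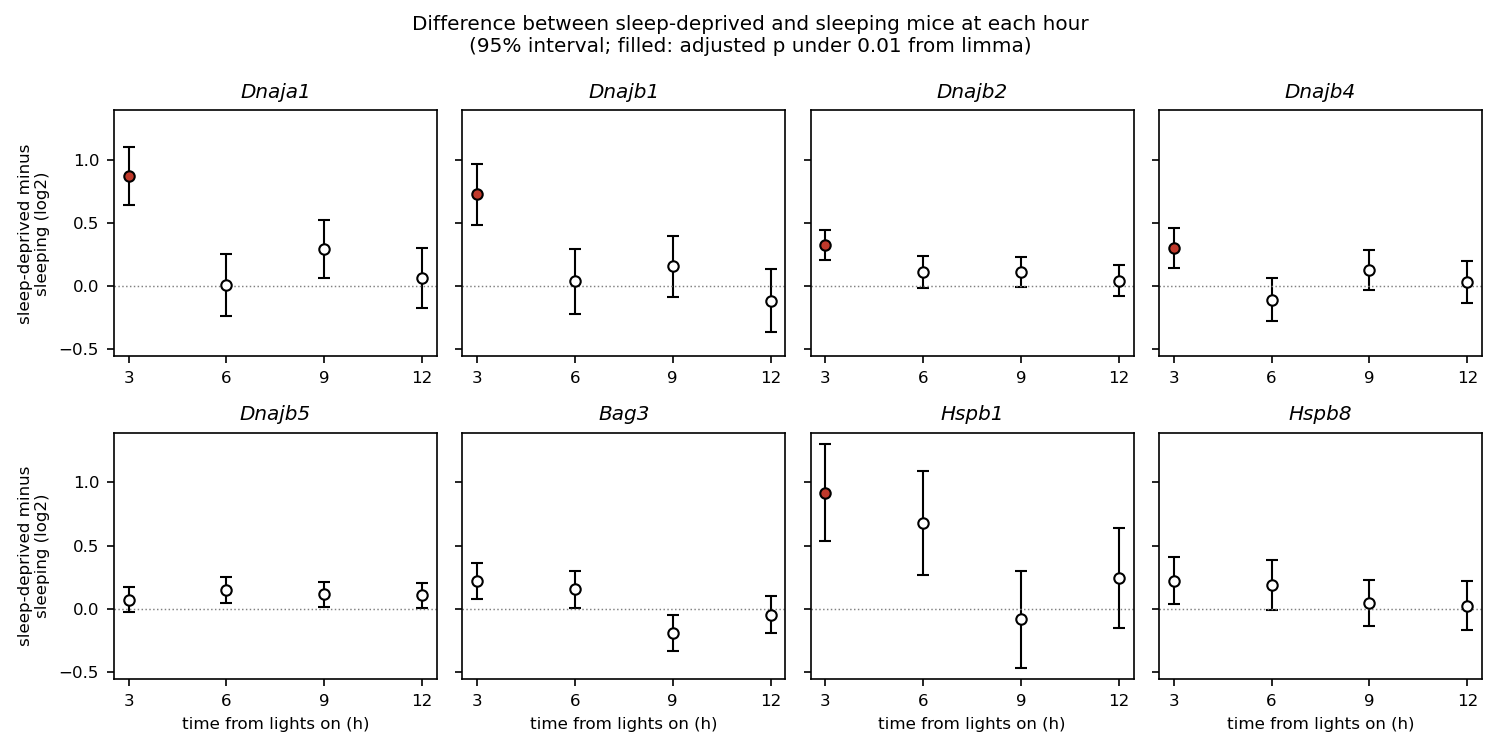
Sleep-deprived minus sleeping difference of each gene in log2 units (vertical axes) at 3, 6, 9 and 12 h from lights on (horizontal axes), with 95% intervals from limma. Filled points have an adjusted p under 0.01: the 5 filled points are all at 3 h, where Dnaja1 stands at 0.87 and Hspb1 at 0.92.

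Whether the difference depends on the hour was tested directly. Dnaja1 was the 1 gene of the 8 whose difference between the states changed over the hours (limma F = 11.24, adjusted p = 0.00878), as did 0.0691% of all genes. The next were Dnajb1 (adjusted p = 0.0215), Bag3 (0.0482) and Hspb1 (0.0775). The Dnaja1 call rested on single mice. With 1 mouse left out it passed in 35 of 69 fits, with an adjusted p from 1.25e-05 without array 46 to 0.0237 without array 45, and it did not pass with a block of 5 runs (adjusted p = 0.0146). Without the 16 arrays both Dnaja1 (adjusted p = 7.35e-06) and Dnajb1 (adjusted p = 0.00139) passed, beside 1.07% of all genes.

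Over all hours together, 35 sleep-deprived against 34 sleeping mice, 3 of the 8 genes were higher in sleep-deprived mice (Dnaja1, Dnajb2 and Dnajb5) and 0 were lower. Of all genes, 3.68% were higher and 4.35% lower (8.03% changed). Dnaja1 differed by 0.32 (SE 0.07, adjusted p = 0.00128), Dnajb2 by 0.15 (SE 0.04, adjusted p = 0.00319) and Dnajb5 by 0.11 (SE 0.03, adjusted p = 0.00479), all from limma. Within the 4 runs the Dnaja1 difference was 0.20 and 0.17 (9 h and 12 h groups) and 0.32 and 0.66 (3 h and 6 h groups). Dnajb5, which passed at no single hour, had differences of 0.07, 0.15, 0.11 and 0.11 at 3, 6, 9 and 12 h, and 0.11, 0.10, 0.08 and 0.16 within the runs. Its difference was again 0.11 without the 16 arrays but did not pass (adjusted p = 0.0165), nor did that of Dnajb2 with a block of 5 runs (0.12, adjusted p = 0.0273).

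Hspb1 differed by 0.45 over all hours (SE 0.13, limma adjusted p = 0.0139) and did not pass. It passed with the 4 runs as a block (0.43, adjusted p = 0.00212) and without the 16 arrays (0.53, adjusted p = 0.00428). Within the runs its difference was -0.05 and 0.19 in the 9 h and 12 h groups, and 0.85 and 0.74 in the 3 h and 6 h groups. Dnajb1 (0.21, adjusted p = 0.0452), Hspb8 (0.12, adjusted p = 0.104), Dnajb4 (0.09, adjusted p = 0.172) and Bag3 (0.03, adjusted p = 0.711) did not pass. Bag3 was 0.19 and 0.18 in the runs of the 3 h and 6 h groups and -0.13 and -0.12 in those of the 9 h and 12 h groups.

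The baseline mice place each group above or below its level at lights on. These comparisons share the 9 baseline mice. After 3 h of sleep deprivation 1 of the 8 genes was higher than baseline, where 0.999% of all genes were higher and 1.88% changed. This was Dnaja1, by 0.54 (SE 0.12, adjusted p = 0.0024 from limma), from baseline values of 9.29, 9.61 and 10.22 (lowest, median and highest). Hspb1 stood 0.64 above baseline (adjusted p = 0.0431), Dnajb1 0.40 (adjusted p = 0.0463), Hspb8 0.28 (adjusted p = 0.0784) and Dnajb2 0.21 (adjusted p = 0.0297). Hspb1 also passed with the 4 runs as a block (0.78, adjusted p = 0.00346), where 2.44% of all genes passed, and Dnajb2 without the 16 arrays (0.22, adjusted p = 0.00472), where 4.19% did.

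After 3 h of sleep, 0 of the 8 genes passed against baseline by limma, as for 0.0159% of all genes, and 3 had an unadjusted p under 0.05. These were Dnaja1 with -0.33 (adjusted p = 0.316), Dnajb1 with -0.33 (adjusted p = 0.339) and Dnajb5 with -0.13 (adjusted p = 0.341).

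**Figure D3:**
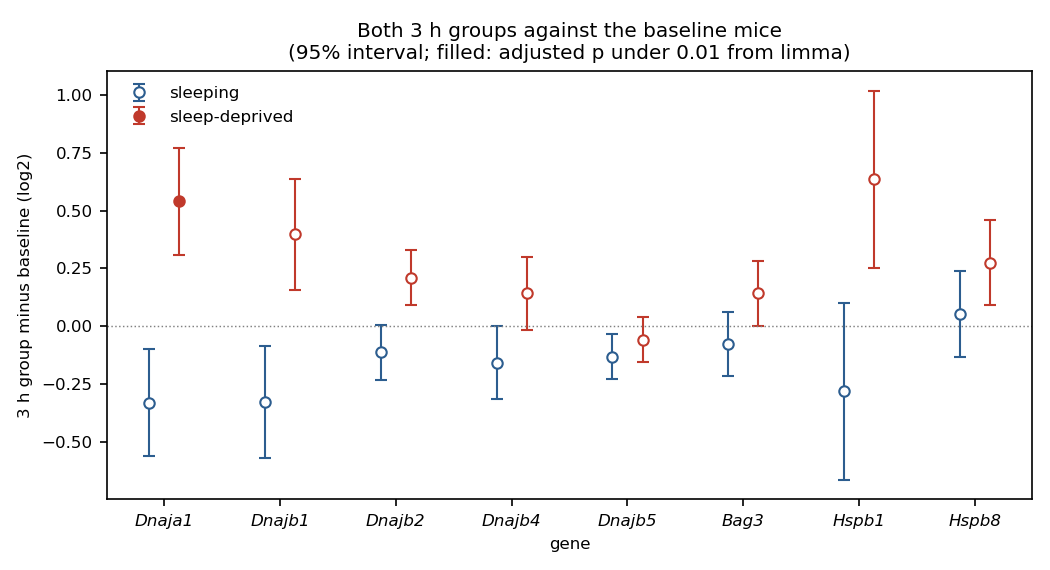
Difference of both 3 h groups from the baseline mice (vertical axis, log2 units) for each gene (horizontal axis), sleeping mice in blue and sleep-deprived mice in red, with 95% intervals from limma. Dnaja1 in sleep-deprived mice, at 0.54, is the filled point, with an adjusted p under 0.01.

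Later groups lay mostly at or below baseline. After 9 h of sleep deprivation Bag3 was lower than baseline, at -0.37 (SE 0.07, adjusted p = 6.38e-05 from limma), from baseline values of 9.59, 9.75 and 10.11. It was the 1 gene of the 8 that passed, beside 8.69% of all genes in that direction and 15.5% in either, and Hspb1 had -0.61 (adjusted p = 0.0149). After 9 h of sleep Dnajb5 was the 1 gene that passed, at -0.25 (SE 0.05, adjusted p = 0.000351), beside 1.79% of all genes in that direction and 3.52% in either, and Dnajb2 had -0.23 (adjusted p = 0.0111). At 6 h and 12 h 0 of the 8 passed in either state by limma. Of all genes, 0.335% and 5.39% passed in sleep-deprived mice, and 0.383% and 6.34% in sleeping mice, and 1, 1, 3 and 4 of the 8 had an unadjusted p under 0.05 in the same order. The 1 gene after 6 h of deprivation was Hspb8, above baseline by 0.20, and those in the other groups were below baseline. Without the 16 arrays Dnajb5 passed after 6 h of sleep (-0.26, limma adjusted p = 0.00146). Bag3 then passed after 12 h of deprivation (-0.30, adjusted p = 0.00719) and after 12 h of sleep (-0.28, adjusted p = 0.00924). Hspb1 was among the genes that then passed after 9 h of sleep (-0.73, adjusted p = 0.00832). The closing section gives the shares of all genes in that setting. The 9 h and 12 h groups lie in other runs of array numbers than baseline.

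Over the hours of sleep, from baseline to 12 h, 0 of the 8 genes had a slope that passed by limma, beside 7.87% of all genes, and 4 had an unadjusted p under 0.05. The steepest were Hspb1, at -0.53 over 12 h (adjusted p = 0.0301), and Bag3, at -0.20 over 12 h (adjusted p = 0.0487). Median levels of Hspb1 were 11.57 at baseline and 11.35, 11.09, 11.19 and 11.09 after 3, 6, 9 and 12 h of sleep. Without the 16 arrays the Hspb1 slope passed (-0.66 over 12 h, adjusted p = 0.0056), beside 8.88% of all genes. Unequal spread over baseline and the sleeping groups was found for 0 of the 8 genes by Bartlett's test, beside 4.78% of all genes, with 0 of 8 at an unadjusted p under 0.05 and 0 passing by the Brown-Forsythe test. No share of all genes is given for the Brown-Forsythe test, and 4.78% is not that share.

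Other probe sets bore on 2 of the 8 genes. A second probe set of Dnaja1, with a mean of 8.63, was higher in sleep-deprived mice at 3 h by 1.02 (SE 0.12, adjusted p = 2e-08 from limma), and its difference changed over the hours (adjusted p = 0.00146). A second probe set of Hspb1, with a mean of 11.18, differed by 0.92 at 3 h (adjusted p = 0.000824), the same as the first, and another, with a mean of 4.21, did not pass (0.20, adjusted p = 0.0465). The annotation used here gives no probe positions, and signal from near-identical gene copies cannot be told from that of Dnaja1 or Hspb1. A further probe set names Dnaja1 together with a microRNA gene and was left out.

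Related genes on lists of other chaperones put these values in context at 3 h. Among the other class A and B J-domain proteins 3 of 11 measured genes were higher in sleep-deprived mice and 0 lower. They were Dnaja4, a cytosolic class A protein (0.47, SE 0.08), and Dnajb9 and Dnajb11, partners of the Hsp70 of the endoplasmic reticulum (0.43 and 0.37). The list's median was 0.05. Of 29 class C proteins, which share little beyond the J domain, 2 were higher and 1 lower, beside 3.62% and 3.74% of all genes, with a median of 0.0028. These were Dnajc3, an endoplasmic reticulum protein that binds unfolded clients (0.40), Dnajc21, a factor of ribosome assembly (0.21), and Dnajc4 (-0.30).

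Of the other genes measured in the families of Bag3 and of the small heat shock proteins none passed at 3 h by limma, while Cryab and Hspb2 were not analysed here. Of 5 other BAG proteins 0 passed (differences from -0.06 to 0.03), and of 6 other small heat shock proteins 0 passed (from -0.58 to 0.07, median -0.08). The lowest of these, Hspb6 with -0.58 (adjusted p = 0.0691) and Hspb7 with -0.41 (adjusted p = 0.232), named after their values were seen, are proteins of heart and skeletal muscle. The cardiac muscle markers, 0 of 9 passing, ran from -0.47 to 0.37 in sleep-deprived and from -0.43 to 1.45 in sleeping mice at 3 h, and their part in this was not tested.

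Of 14 Hsp70 and Hsp110 chaperones and co-chaperones, 9 were higher at 3 h and 0 lower, with a median of 0.27. The smallest adjusted p-values were those of Stip1, which links Hsp70 to Hsp90, of Hsph1, the Hsp110 exchange factor, and of Hspa4l, of the same family (differences of 0.96, 1.99 and 1 in log2 units). In 4 of the 14 (Hsph1, Stip1, Hspa4l and Hspa2) the difference changed over the hours, beside 0.0691% of all genes. Of 4 heat shock factors and regulators (Hsf2, Hsf4, Hsf5 and Hsbp1, while Hsf1 was not analysed here) 0 passed at 3 h, with differences from -0.10 to 0.17. Of 13 genes of the selective autophagy route used by Bag3 and Hspb8 0 passed at 3 h, from -0.29 to 0.15. On these related lists, the genes that passed at 9 h were Hsf4, Hsbp1 and Dnajc4, lower (each -0.24), and Hspa4 (0.19) and Gabarapl2 (0.16), higher. Of all genes, 2.08% were lower and 0.797% higher at 9 h.

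**Figure D4:**
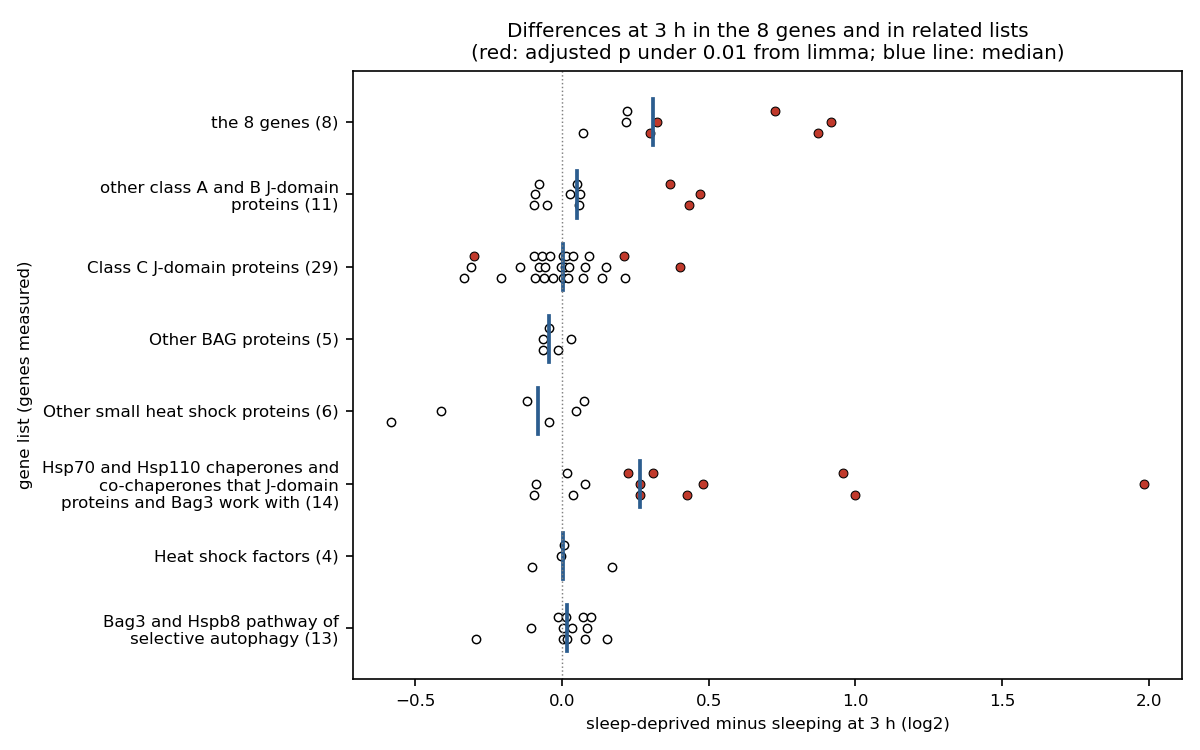
Sleep-deprived minus sleeping difference at 3 h (horizontal axis, log2 units) of the 8 genes and of the genes on 7 related lists (vertical axis, genes measured in brackets), 1 point per gene. Red points have an adjusted p under 0.01 from limma and blue lines are medians, 0.31 for the 8 genes and 0.27 for the Hsp70 and Hsp110 list.

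The genes most like each of the 8 were taken by Pearson correlation over the 78 arrays, which share the groups and the array runs, and are given as a description. Nearest to Dnaja1 were Chordc1 (r = 0.91), Hspa4l (0.87) and Cacybp (0.87), and after group means were removed Chordc1 (0.88), Hspa4l (0.80) and Hsph1 (0.80). Dnajb2 was nearest to Hsph1 (0.86), Ints3 (0.85) and Stip1 (0.84), and within groups to Dnaja4, Hsph1 and Fkbp4 (0.76, 0.75 and 0.74). Dnajb1 was nearest to Trim65 (0.82), Tnfrsf25 and Banp, and within groups to Trim65, Hsph1 and Dnajb2 (0.72, 0.70 and 0.70).

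The remaining genes had nearest neighbours outside the 8 genes and the related lists. They were Washc4 for Dnajb4 (0.90), Cd320 for Dnajb5 (0.69), Tada3 for Bag3 (0.81), Foxk2 for Hspb1 (0.87) and Mrpl38 for Hspb8 (0.76). Within groups, the small heat shock protein Hspb7 was among the 3 nearest to Hspb8 (0.77). Among the 8 genes the closest pair over all arrays was Dnaja1 and Dnajb1 (0.79), followed by Bag3 and Hspb1 (0.76).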

How the data were processed

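The authors summarised the lung arrays with RMA, named in the submitters' notes, and deposited 35556 log2 intensities per array, scaled to a common distribution. These lack their decimal point, which was restored behind digit 1 (behind digit 2 for values that start with 1), giving 2.27 to 13.85. A single symbol is annotated to 21218 probe sets, several to 1881 and none to 12457.

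Groups were compared with limma 3.58.1 (R 4.3.3) on all probe sets, with Benjamini-Hochberg adjusted p-values and a threshold of 0.01, in place of the study's modified F statistic with shuffles. Every gene, the 8 and the background alike, was counted by its brightest probe set. The comparison over all hours had no term for time and no baseline mice, slopes and spread were tested in baseline and sleeping mice, and all others used 1 mean per group over 78 arrays. The 8 genes and the lists were chosen with earlier results of these data known. Named genes of a list are up to 3 per direction with the smallest adjusted p at 3 h. On the lists of related genes those that passed at 9 h are named too. On simulated data with 200 changed probe sets, the test at 3 h recovered 24%, 78.5% and 94.5% of log2 changes of 0.25, 0.5 and 1, and the test of change over the hours 8%, 64% and 91%. Mice are single animals with 1 array each. Alternatives were blocks of 4 or 5 array runs, leaving out 16 arrays or each mouse, a filter at a mean of 6, array weights, other variances, centring, probe set means and other slope models. Heart was not analysed here. Of the listed genes, 12 are not analysed here.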

Additional observations from a re-analysis of the deposited data

Results flagged for a closer look

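Of 72 sets of values (8 genes in 9 groups), 10 held a mouse that stood apart by Dixon's test at the 95% level, where chance gives about 1 in 20. In mice sleep-deprived for 3 h array 46 was lowest for Dnaja1 (9.205) and for Dnajb4 (10.02). In mice that slept for 3 h array 76 was lowest for Dnajb4 (9.62). In mice sleep-deprived for 6 h array 71 was lowest for Bag3 (9.32). In mice that slept for 9 h array 28 was highest for Dnajb1 (8.77) and for Hspb8 (10.50), and array 29 was highest for Bag3 (9.85). In mice sleep-deprived for 12 h array 81 was lowest for Dnajb2 (7.66) and for Hspb8 (9.65), and in mice that slept for 12 h array 16 was lowest for Dnajb4 (10). Arrays 28, 46 and 81, which account for 6 of the 10 values, are among the 16 arrays. Which arrays belong to that set depends on how the order of conditions is laid along the array numbers. The difference of Dnaja1 between the states changed over the hours (adjusted p = 0.00878 from limma's F test).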

How the results depend on the processing

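The count of 5 genes at 3 h was 7 with array weights (Bag3 and Hspb8 also passed, as did 11.5% of all genes), 4 with the spread of the 3 h groups alone, and 5 in the other alternatives that kept every mouse and without the 16 arrays. With 1 mouse left out it was 4 in 7 fits and 5 in 11, and Dnajb4 lost its call in 8 of the 18. That of 3 over all hours was 2 with 5 runs as a block and after centring, and 3 or 4 in the other alternatives, including each of the 69 fits with 1 mouse left out, where the range was 3 to 4. Without the 16 arrays 1 gene passed at 6 h, 2 at 9 h, 2 for a change over the hours and 1 for the slope (3.92%, 7.13%, 1.07% and 8.88% of all genes). Against baseline there were 2, 2 and 1 at 3, 9 and 12 h of deprivation (4.19%, 17.1% and 9.7%), and 1, 4 and 1 at 6, 9 and 12 h of sleep (1.91%, 6.6% and 10%). With array weights 3 genes passed for a change over the hours and 1 for the slope (0.861% and 14.4%), and against baseline 4, 3 and 1 at 3, 9 and 12 h of deprivation (6.7%, 25.6% and 14.5%) and 2 and 1 at 9 and 12 h of sleep (6.51% and 14.1%). With 5 runs as a block 0 passed for a change over the hours by limma (the lowest adjusted p was 0.0146, of Dnaja1). With a common intercept 3 had a slope (13.7%). The 4 runs gave 2 against baseline at 3 h of deprivation (2.44%), the filter 2 and 2 at 9 h of deprivation and sleep (25.1% and 6.13%), and probe set means 2 at 9 h of sleep (4.22%). Some counts above stand without a share of all genes, and that share moves with the setting. At 3 h it was 7.36% in the main fit and 11.5% with array weights, so a steady count alone does not measure stability.

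Signs that turned all belonged to differences that passed in neither setting, and the cause was not tested. The slopes over 12 h of Dnaja1 became 0.089 with 4 runs, 0.27 with 5 runs and 0.18 in sleeping mice alone. Those of Dnajb1 became 0.29 with 5 runs and 0.33 in sleeping mice alone, that of Dnajb2 0.046 with 5 runs, that of Dnajb5 0.0071 in sleeping mice alone, that of Dnajb4 -0.010 with a common intercept and those of Hspb8 -0.10 with a common intercept and -0.0017 in sleeping mice alone. With 5 runs Bag3 over all hours became -0.039 and Dnajb1 at 6 h -0.028. With array weights Dnajb1 at 6 h became -0.020, Hspb8 in mice that slept for 3 h -0.0069 from baseline, and from 3 to 6 h of sleep Dnajb5 0.0058 and Hspb8 0.015. Dnaja1 at 6 h became -0.014 with probe set means, Hspb1 at 9 h 0.11 without the 16 arrays, and Dnajb2 from 3 to 6 h of sleep -0.018 without them. After centring, Dnajb2 from 3 to 6 h of sleep became -0.00045 and Dnajb5 from 3 to 6 h of deprivation -0.0036.

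No paired analysis was possible because each array number occurs in 1 group and no number is shared between groups. The number of mice limits what could pass. Log2 changes of 0.25 at 3 h were recovered in 24% of simulated cases, where 200 of 35556 probe sets were changed. In the data 7.36% of all genes passed at 3 h. The simulated setting held fewer changes, so 24% may not hold for the data and does not reflect the number of mice alone.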
